A study of Danio rerio with 32 samples.

Results

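The zebrafish genes sgk2b and ndel1a were described probe by probe in the livers of adult fish exposed to the organophosphorus insecticide dichlorvos (DDVP) and in livers of unexposed fish that were fed or unfed. The pair was chosen by its pattern over the DDVP arrays, lower than the controls at the low concentration and higher at the high concentration, so this reversal is given below as a description, no p is given for it, and the counts of calls on those arrays that include the pair support nothing. A probe was counted as a member when its transcript accession belonged to sgk2b or ndel1a, which gave 4 probes, 2 for each gene, of 43603 probes on the array, and the pair are 2 of the 10536 genes that could be named there. All 4 were also among the 5481 probes in the deposited table of log2 values.

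The series held 32 single-colour arrays of liver RNA from male fish of the Tübingen strain, 6 to 9 months old by the labels. In the DDVP experiment, fish were kept for 24 h in water with no toxicant (2 control sets of 4 arrays) or with DDVP at 6 mg/L (low), 19 mg/L (mid) or 32 mg/L (high), 4 arrays each. In the feeding experiment no toxicant was given, and fish were fed normally (fed), or labelled as fasted for 24 h (unfed 24 h) or 50 h (unfed 50 h), again 4 arrays each. The labelled concentrations are targets. Measured concentrations were slightly lower at mid and high, and the shorter fast was somewhat longer than its label. Each array carried RNA pooled from several livers, so the spread between arrays is the spread between pools of fish and not between single fish, and fewer cells of a type cannot be told apart from less RNA per cell.

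SGK kinases (serum- and glucocorticoid-regulated kinases) belong to the AGC family of protein kinases and act downstream of phosphatidylinositol 3-kinase. In mammals they are switched on by phosphorylation, through PDK1 and the TORC2 complex, and they regulate ion channels, transporters and metabolic proteins. SGK1 is known for rapid induction of its mRNA by stress and by corticosteroids, whereas SGK2 is the family member known for its expression in liver and kidney. Ndel1 is a coiled-coil protein of the NudE family that joins LIS1 to cytoplasmic dynein, the motor that carries cargo toward the minus ends of microtubules, and it is best known for its part in nuclear positioning, mitosis and neuronal migration. The zebrafish genome carries 2 paralogs of each, sgk2a with sgk2b and ndel1a with ndel1b.

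Both probes of sgk2b were lowest at low and highest at high. With probe A_15_P164181 the deposited log2 value in the 8 controls ran from 10.23 through a median of 10.85 to 11.38. At low the 4 arrays read 8.90, 9.59, 9.77 and 9.35. At mid they read 11.55, 11.10, 11.41 and 11.99. At high they read 12.80, 12.49, 13.01 and 12.91. The low arrays therefore all lay below the lowest control and the high arrays all above the highest, while at mid replicate 2 lay within the control range and the other 3 above it. The log2 means were 10.85 ± 0.33 in controls (SD, n = 8), 9.40 ± 0.38 at low, 11.52 ± 0.37 at mid and 12.80 ± 0.22 at high (SD, n = 4 each), which placed the mean at 0.366-fold of the controls at low, 1.58-fold at mid and 3.87-fold at high.

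The other sgk2b probe, A_15_P210306, followed the same order. Its control values ran from 10.54 through a median of 11.18 to 11.83. The low arrays read 9.97, 9.995, 9.86 and 10.35. The mid arrays read 12.17, 11.10, 12.12 and 12.56. The high arrays read 13.62, 13.18, 13.49 and 13.15. Again every low array was below and every high array above the controls, and at mid replicate 2 (11.10) was once more the single array within the control range. The log2 differences from the control mean were -1.10 at low, 0.84 at mid and 2.21 at high, against -1.45, 0.66 and 1.95 for the first probe. From low to high, the mean of sgk2b rose 10.6-fold by A_15_P164181 and 9.94-fold by A_15_P210306, and the larger step lay between low and mid (2.11 and 1.94 on the log2 scale, against 1.29 and 1.37 between mid and high).

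For ndel1a the swing was smaller and the groups were less cleanly apart. With probe A_15_P131351 the controls ran from 8.62 through 9.37 to 9.71 on the log2 scale. The low arrays read 7.89, 8.14, 8.15 and 8.69. The mid arrays read 9.51, 9.53, 9.41 and 9.56. The high arrays read 9.64, 10.44, 10.66 and 10.42. Low replicate 4 lay above the lowest control, and high replicate 1 lay below the highest controls, so neither group was wholly apart from the controls. The log2 means were 9.33 ± 0.37 in controls (SD, n = 8), 8.21 ± 0.34 at low, 9.50 ± 0.06 at mid and 10.29 ± 0.45 at high (SD, n = 4 each), that is 0.460-fold, 1.12-fold and 1.94-fold of the controls.

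With the other ndel1a probe, A_15_P193651, the controls ran from 11.06 through 11.56 to 11.95. The low arrays read 10.55, 10.82, 10.79 and 11.20. The mid arrays read 11.46, 11.40, 11.56 and 11.37. The high arrays read 12.10, 12.59, 12.60 and 12.51. All 4 high arrays were above every control, and at low replicate 4 was within the control range. The log2 differences from the control mean were -0.72 at low, -0.12 at mid and 0.88 at high, or 0.605-fold, 0.921-fold and 1.84-fold. Unlike sgk2b, ndel1a at mid lay within the range of the controls on all 4 arrays with both probes. Between low and high the mean of ndel1a rose 4.21-fold by A_15_P131351 and 3.05-fold by A_15_P193651.

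**Figure D1:**
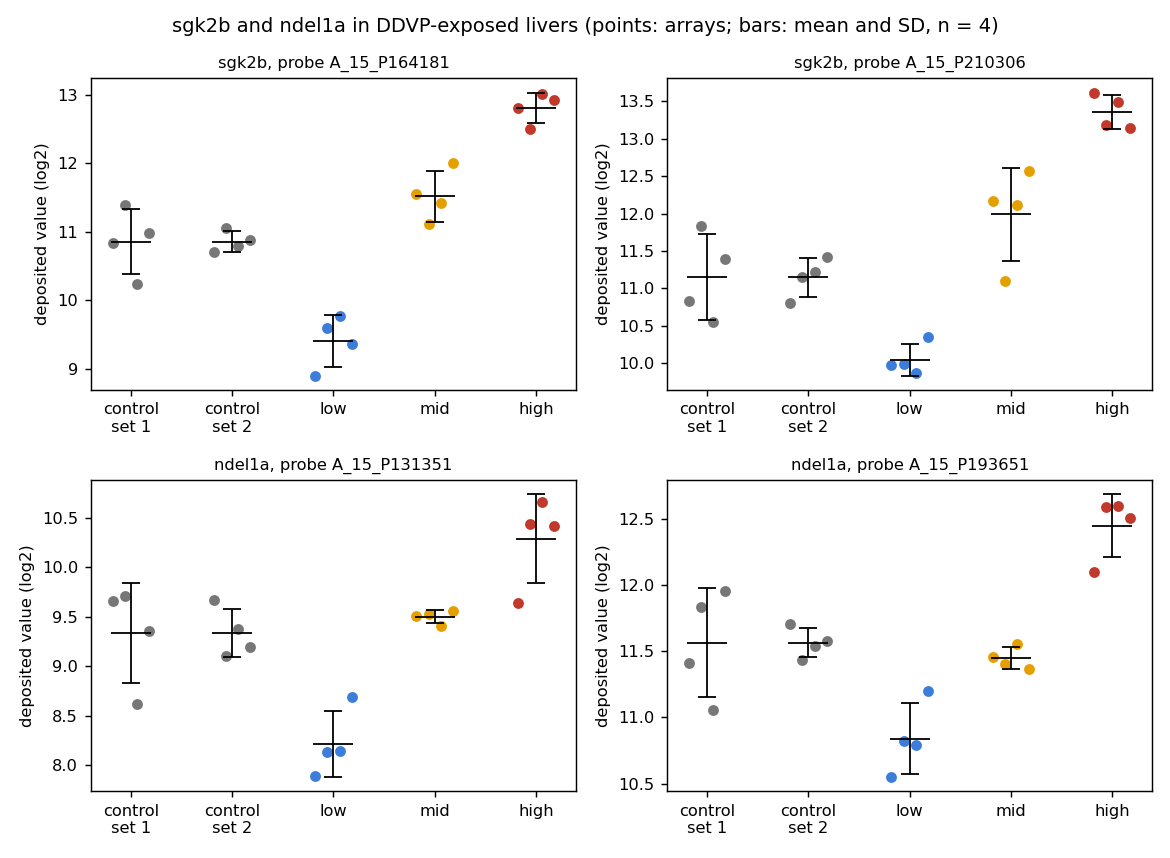
Deposited log2 values (y axis) of the 2 sgk2b probes and the 2 ndel1a probes in control set 1, control set 2 and the low, mid and high DDVP groups (x axis); points are arrays and bars are the mean and SD of 4 arrays. In every panel the low group has the lowest mean and the high group the highest, and for sgk2b no low or high array overlaps a control.

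Single arrays shaped these spreads. Control set 1 replicate 3 was the lowest control with all 4 probes, and the SD of ndel1a probe A_15_P131351 in control set 1 was 0.50. High replicate 1 was the lowest high array with both ndel1a probes. For each deposited probe the mean of control set 1 matched that of control set 2 and that of the unfed 24 h arrays to within 1e-04 on the log2 scale, so the table had been aligned on these groups and no distance between them was measured. All DDVP differences are therefore relative to aligned controls, and whether the concentrations came from separate exposures was not given by the labels. Per the paper, each exposed group was contrasted with a control of its own, in a model with dose and exposure. If low and high came from separate exposures, a difference between concentrations cannot be told apart from one between exposures.

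The reversal was rare among the deposited probes, which the authors had already selected on these arrays for a change with DDVP or feeding. Against the 8 controls, 1683 of 5481 probes (30.7%) were called at low, 3430 (62.6%) at mid and 4087 (74.6%) at high, a call being an adjusted p of at most 0.001 by limma and at least a 1.8-fold change. Of the 1470 probes called at both low and high, 1466 changed in the same direction and 4 in opposite directions, 0.073% of the deposited probes. Both sgk2b probes and ndel1a probe A_15_P131351 were the 3 that were lower and then higher, and the remaining probe, A_15_P118781, which has no gene name here, was higher at low (1.15) and lower at high (-1.05). These counts use the contrasts that chose the pair and are not evidence for it.

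The threshold divided the 2 probes of ndel1a. A 1.8-fold change is 0.85 on the log2 scale, and A_15_P131351 passed it at low (-1.12) and narrowly at high (0.95), whereas A_15_P193651 passed it at high (0.88) but not at low (-0.72). With high replicate 3 left out, the high difference of A_15_P131351 fell to 0.83, under the threshold. That of A_15_P193651 fell to 0.81 without control set 1 replicate 3, to 0.83 without high replicate 3 and to 0.84 without high replicate 2, also under it. Without the fold requirement 14 probes were lower at low and higher at high at the same adjusted p, the 4 probes of sgk2b and ndel1a among them. Those that met the fold requirement at high but not at low included hmgb1a, a chromatin protein, with log2 differences of -0.76 at low and 1.92 at high, and the connexin genes gja12.1 (-0.62 and 1.73) and gja13.1 (-0.81 and 1.51). A larger number of probes at that adjusted p went the other way, higher at low and lower at high. Among them were cyp2aa12 (0.59 and -2.11) and rxrgb (0.72 and -1.60). The genes named in this paragraph other than sgk2b and ndel1a were chosen after their values were seen.

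**Figure D2:**
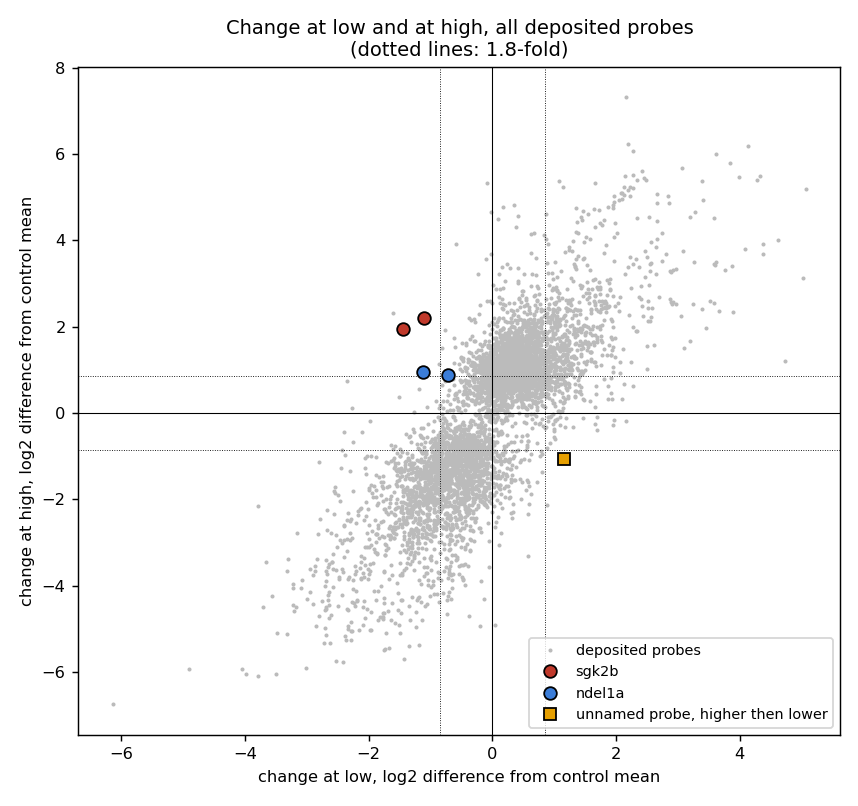
Log2 difference from the control mean at low (x axis) against that at high (y axis) for all 5481 deposited probes (grey), with the probes of sgk2b (red), ndel1a (blue) and the unnamed probe A_15_P118781 (orange square) marked and dotted lines at 1.8-fold. Most probes lie along one diagonal, and the marked probes lie in the quadrants where low and high have opposite signs.

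By separation alone, 1382 probes (25.2%) had all 4 low arrays below the 8 controls, 2712 (49.5%) had all 4 high arrays above them and 2603 (47.5%) had all 4 mid arrays above them. Both separations, low below and high above, occurred in 27 probes (0.493%), which included both sgk2b probes and neither ndel1a probe. None of the 4 probes of sgk2b and ndel1a had all mid arrays above the controls. A mean below the controls at low and above them at high, of any size, was found in 433 probes (7.9%). These counts also use the arrays that chose the pair and are not evidence for it.

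The deposited probes of the paralogs had means above those of their controls at low, where sgk2b and ndel1a had means below, but not all were apart from the controls. The authors had selected all deposited probes for a change with DDVP or feeding on these arrays. Calls and adjusted p under DDVP, for the paralogs and the lists below, are therefore description and not independent tests. Standard errors in this fit are also too small, because the control means had been aligned. The 3 probes of sgk1, the stress-induced kinase of the family, rose at each concentration, and their log2 changes at low were 3.87, 4.38 and 4.62, above those at mid (3.12, 3.49 and 3.44) and at high (3.40, 3.91 and 4.02). With A_15_P118556 the sgk1 log2 means were 11.12 ± 0.44 in controls (SD, n = 8), 14.99 ± 0.27 at low, 14.24 ± 0.15 at mid and 14.52 ± 0.23 at high (SD, n = 4 each), and its largest adjusted p by limma over the 3 concentrations was 3.0e-12. The lowest point of sgk2b thus fell at the concentration where sgk1 had its highest mean, and the difference between the 2 genes was not tested. The sgk3 probe A_15_P156746, for a kinase of the same family that carries a phosphoinositide-binding domain, was at 0.30, 0.48 and 0.74. It was not called at any concentration, at high only because of the fold threshold (adjusted p by limma 2.0e-05). Its arrays overlapped the controls at low and mid, and at high all 4 lay above every control. The closest paralog, sgk2a, had 1 probe on the array and was not among the deposited probes, so its DDVP values were not analysed here. Probe sequences were not used here, so any cross-hybridisation between paralogs was not tested.

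The 2 probes of ndel1b, the paralog of ndel1a, were above the controls on average at each concentration. Probe A_15_P114172 read 13.16, 13.54, 13.12 and 12.52 at low, where its controls ran from 11.62 to 12.23, so the groups did not overlap. Its log2 change was 1.12 at low, 1.22 at mid and 1.76 at high, called at all 3 (adjusted p by limma 8.0e-06, 1.0e-06 and 3.1e-09). Probe A_15_P118170 was at 0.52 and 0.74 at low and mid, under the fold threshold and with low replicate 4 (7.80) below the highest control (7.81), and rose by 1.33 at high (adjusted p by limma 1.6e-08). At low the log2 means of ndel1a and ndel1b lay on opposite sides of their controls and at high on the same side. The gene nde1, the other NudE family member, was on the array but not among the deposited probes.

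**Figure D3:**
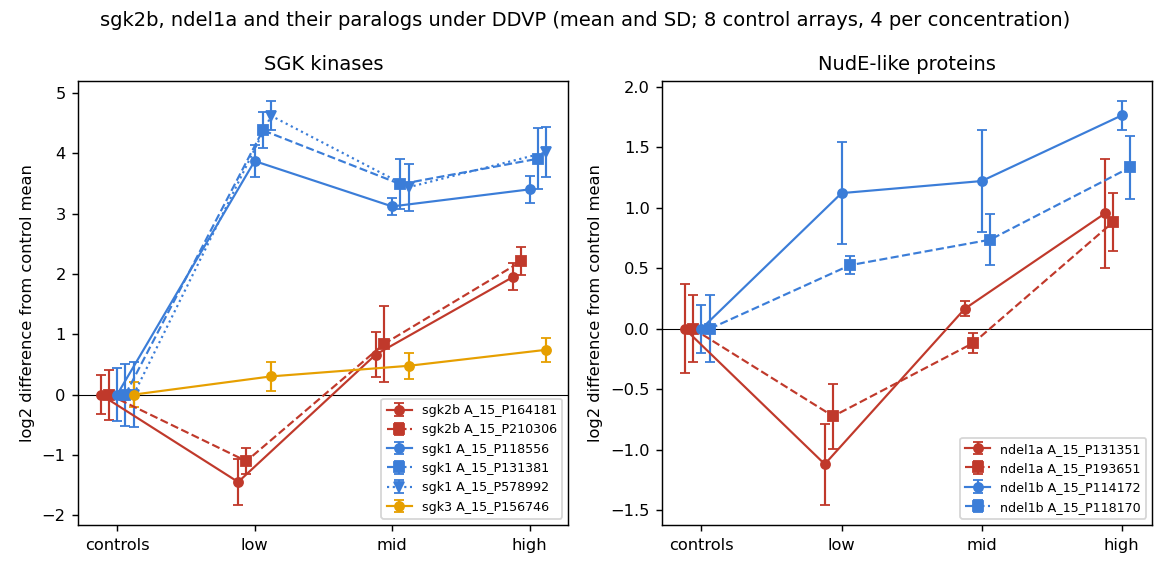
Log2 difference from the control mean (y axis) in controls and at low, mid and high (x axis) for probes of sgk2b, sgk1 and sgk3 (left) and ndel1a and ndel1b (right); points are means and bars the SD of 8 control arrays or 4 exposed arrays. The sgk1 and ndel1b lines lie above 0 at every concentration, and the sgk2b and ndel1a lines dip below it at low.

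The list of other SGK pathway genes held 51 genes (kinases, activators, substrates and regulated transporters), of which 29 were on the array and 13, with 18 probes, were deposited. At low 4 of these 18 probes were called higher and 5 lower, at mid 7 and 5, and at high 8 and 6, beside the 30.7%, 62.6% and 74.6% called over all deposited probes. The median log2 change of the list was 0.50, 0.60 and 0.72, and that of all deposited probes 0.05, 0.45 and 0.51.

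The kinases that switch on SGKs and related pathways included pdpk1a, encoding PDK1, which rose by 1.68 at low, 1.94 at mid and 2.41 at high (adjusted p by limma at most 4.3e-07). Both probes of akt2, a kinase of the same AGC family, were called higher at mid and high, at 1.70 and 1.16 at high. The kinase gene mtor went the other way. Its probe A_15_P150931 was at -0.40, -0.76 and -1.13 and called lower at high, and A_15_P130566 was at -0.50, -0.51 and -0.78 and not called. On the hormone side, nr3c2, the mineralocorticoid receptor, fell at each concentration (log2 change -1.15, -1.59 and -1.76), as did hsd11b2, whose product inactivates cortisol (-1.01, -2.74 and -2.80). The largest falls were in the NDRG genes, whose mammalian products are SGK1 substrates. The 2 ndrg2 probes fell at each concentration, with log2 changes of -2.66 and -2.70 at low and -4.34 and -4.57 at high, and ndrg1a was at -2.58 at low and -4.03 at high, called at both. Within this list the genes pdpk1a, akt2, mtor, nr3c2 and hsd11b2 were chosen after their values were seen. None of the 18 probes was called in opposite directions at 2 concentrations, beside 1466 of the 1470 deposited probes called at low and high that kept one direction.

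Among the partners of Ndel1, calls at low and at high fell in part on different genes. Several of these genes had the same sign where they were not called, and the change at high was not tested against that at low. The NudE and dynein list held 49 genes, of which 33 were on the array and 7, with 13 probes, were deposited. At low 1 probe was called higher and 3 lower, at mid 1 and 1, and at high 5 and 3 of the 13, beside 30.7%, 62.6% and 74.6% called over all deposited probes. The medians were -0.09, 0.28 and 0.27, beside 0.05, 0.45 and 0.51 over all deposited probes. The gene pafah1b1b, encoding the dynein regulator LIS1 that Ndel1 binds, was called with all 3 probes at high only, where it rose by 1.09, 1.05 and 0.94, while at low its probes were at -0.09, 0.14 and 0.27. The nudcd2 gene, whose mammalian product is known for stabilizing LIS1, was called with both probes at low only and fell there (-0.93 and -1.16). Its probes stayed below the controls at mid (-0.54 and -0.48) and at high (-0.59 and -0.54), under the fold threshold. The light chain gene dynll1 also was called at low only, where it fell (-1.35), and it was at -0.51 at mid and -0.56 at high. At high, both probes of the dynactin gene actr1b fell (-0.86 and -1.09), as did pafah1b3, encoding a catalytic partner of LIS1 (-1.13). These probes were below the controls at low too, uncalled, at -0.40 and -0.52 for actr1b and -0.80 for pafah1b3. At mid pafah1b3 was called (-0.94). Of these, pafah1b1b and nudcd2 were chosen after their values were seen.

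**Figure D4:**
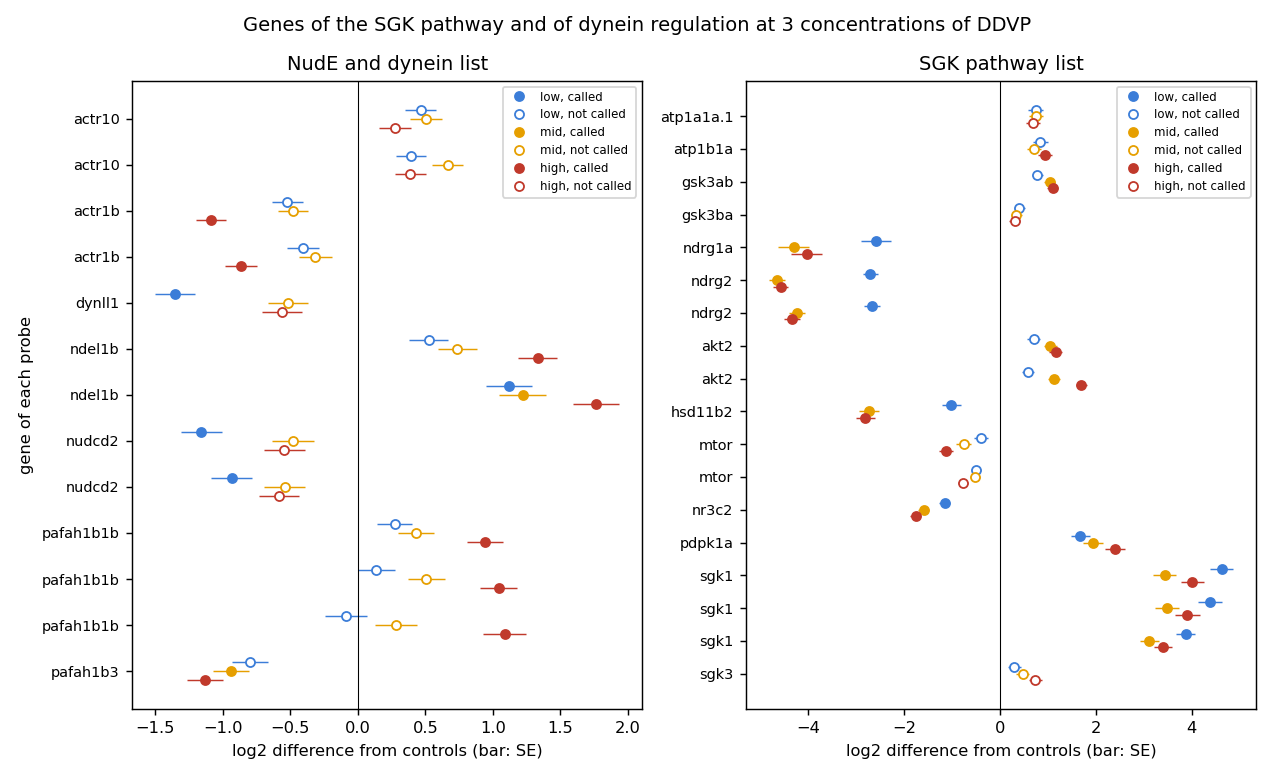
Log2 difference from the 8 controls (x axis, bars are the SE) for each deposited probe of the NudE and dynein list (left) and the SGK pathway list (right), one line per probe labelled with its gene; filled points were called and open points were not, at low (blue), mid (orange) and high (red). The sgk1 and pdpk1a points lie to the right and the ndrg1a, ndrg2, hsd11b2 and nr3c2 points to the left at all 3 concentrations.

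Few markers of liver cell types had deposited probes, and the authors had selected these probes for a change with DDVP or feeding. Their movement with exposure is therefore no evidence about the cell types. Of 10 hepatocyte genes listed, 5 were on the array and all 5 were well above background on the 12 feeding arrays. The 3 deposited hepatocyte probes, of cp and fgb, summed to linear values of 68953 to 82551 in controls, 59898 to 73642 at low, 36656 to 51987 at mid and 33471 to 38509 at high. At low the log2 change was -0.36 for the cp probe and -0.48 and 0.05 for the fgb probes. Of the 4 biliary genes, 1 was deposited (krt18a.1), at 3588 to 5120 in controls, 10689 to 12637 at low, 11862 to 13531 at mid and 9908 to 15060 at high. No deposited probe belonged to the exocrine pancreas, erythrocyte, muscle, egg yolk or enterocyte lists. The part of cell composition in the sgk2b and ndel1a values was not tested.

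The reversal that chose the pair was not read from the feeding arrays, although these arrays had entered the authors' selection of the deposited probes from which the pair was drawn. The feeding experiment addressed whether missed meals alone move them. All 4 probes passed the filter on dim probes (signal to noise of at least 3 on all 4 arrays of a group, met by 16082 probes) and were well above background on all 12 arrays. Neither gene differed detectably between fed and unfed fish. With sgk2b probe A_15_P164181 the fed arrays read 11.61, 11.14, 11.48 and 11.47 on the log2 scale of normalized spot signal. The unfed 24 h arrays read 11.58, 11.76, 11.25 and 11.13. The unfed 50 h arrays read 11.66, 10.99, 11.51 and 11.75. The 3 groups overlapped throughout, with means of 11.42 ± 0.20, 11.43 ± 0.29 and 11.48 ± 0.34 (SD, n = 4 each). With A_15_P210306 the means were 11.58 ± 0.38, 11.63 ± 0.24 and 11.86 ± 0.23, and the fed arrays, from 11.23 to 11.99, spanned nearly the whole range of the unfed ones.

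With ndel1a probe A_15_P131351 the fed arrays read 9.30, 9.88, 10.14 and 9.77. The unfed 24 h arrays read 9.37, 10.12, 9.76 and 10.03. The unfed 50 h arrays read 9.997, 9.48, 9.85 and 10.23. These groups overlapped as well, with means of 9.77 ± 0.35, 9.82 ± 0.33 and 9.89 ± 0.32 (SD, n = 4 each). With A_15_P193651 the means were 12.09 ± 0.35, 12.19 ± 0.23 and 12.27 ± 0.49, and the highest single array was unfed 50 h replicate 4 at 12.95.

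**Figure D5:**
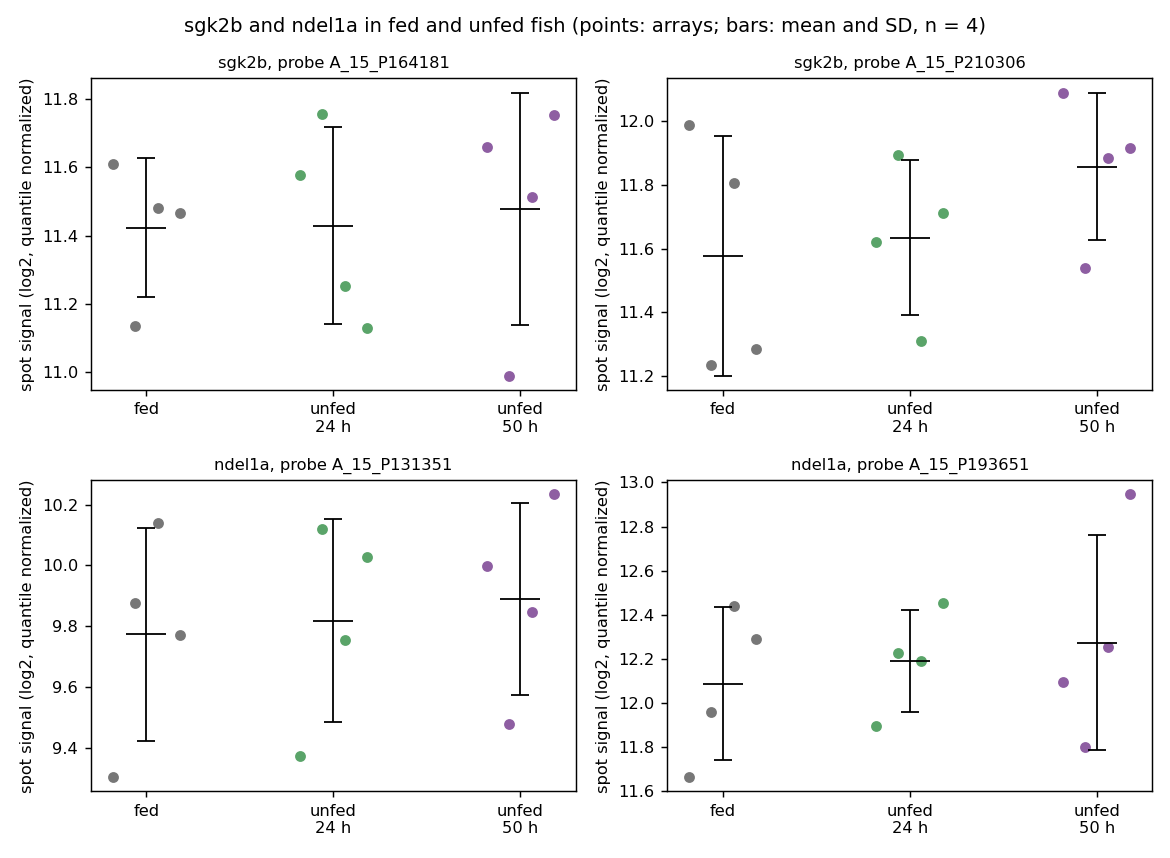
Quantile-normalized log2 spot signal (y axis) of the 4 probes in the fed, unfed 24 h and unfed 50 h groups (x axis); points are arrays and bars are the mean and SD of 4 arrays. The groups overlap in every panel, and no group mean lies outside the range of the fed arrays.

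After 24 h without food the log2 change from fed was 0.01 (95% confidence interval -0.41 to 0.42) and 0.06 (-0.37 to 0.48) for the sgk2b probes and 0.05 (-0.43 to 0.52) and 0.10 (-0.42 to 0.63) for the ndel1a probes. After 50 h it was 0.06 (-0.36 to 0.47) and 0.28 (-0.14 to 0.70) for sgk2b and 0.12 (-0.36 to 0.59) and 0.19 (-0.34 to 0.71) for ndel1a. The smallest adjusted p by limma among these was 0.41, for sgk2b probe A_15_P210306 after 50 h. Between 50 h and 24 h the changes ran from 0.05 to 0.22 with adjusted p of 0.85 or more by limma. Over all probes kept, 1 was called after 24 h (0.00622%), 3 after 50 h (0.0187%) and 0 between the fasts (0%, with 1009 at an unadjusted p under 0.05), so a lack of calls is the common result at this threshold. At an unadjusted p under 0.05 there were 3728 probes after 24 h and 3881 after 50 h, and at an adjusted p of 0.05 by limma 924 and 965. The intervals leave room for changes of up to about 0.7 on the log2 scale.

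The 12 feeding arrays lay on 3 slides, each holding all 3 groups. Within slides the difference between unfed 24 h and fed for sgk2b probe A_15_P164181 was 0.06, -0.06 and -0.34, and for ndel1a probe A_15_P131351 it was 0.44, -0.25 and 0.25, with 1 or 2 arrays a group on each slide. The signs of these differences varied between slides. For sgk2b probe A_15_P210306 the difference between unfed 50 h and fed was 0.10, 0.019 and 0.62 and that between unfed 50 h and unfed 24 h was 0.33, 0.23 and 0.19, positive on all 3 slides. In the same fish, exocrine pancreas markers, all 12 of those on the array well above background, summed to linear signals of 478158 to 1060060 in fed fish, 142472 to 439420 in the unfed 24 h group and 150055 to 1136007 in the unfed 50 h group, and the biliary sum was 13475 to 19643, 29107 to 32640 and 25134 to 42310. The biliary sum came mostly from krt18a.1, with a mean signal of 20091 over the 12 arrays, beside 4089 for krt18b. The part of these markers in the sgk2b and ndel1a values was not tested.

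The paralogs in fed and unfed fish were not called either. The sgk1 probes were higher than in fed fish by 0.75, 0.79 and 0.78 after 24 h (adjusted p by limma 0.080, 0.050 and 0.070) and by 0.64, 0.55 and 0.61 after 50 h. The sgk2a probe A_15_P183176 was at 0.09 after 24 h and -0.30 after 50 h (adjusted p by limma 0.85 and 0.42). The ndel1b probes were at 0.15 and 0.29 after 24 h and at 0.0036 and 0.0035 after 50 h. Spot signals ran only from 96 to 269 for the sgk2a probe and from 90 to 186 for ndel1b probe A_15_P118170. Background was not subtracted, which can shrink the log2 changes of such dim probes. Of the 33 SGK pathway probes and 39 NudE and dynein probes that passed the filter, 0 were called in any feeding comparison, beside 1, 3 and 0 of all 16082 kept. At an adjusted p of 0.05 by limma, dynll2b (-0.81) and gsk3ba (-0.57) were lower after 24 h. After 50 h ndrg1a probe A_15_P515117 was lower (-1.21) and capza1a probe A_15_P194136 higher (0.56). The deposited ndrg1a probe, A_15_P149301, was at -0.98 after 50 h (adjusted p by limma 0.15). These genes were chosen after their values were seen.

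Within the unexposed fish the 2 genes were not clearly tied to each other. Over the 8 DDVP controls, the mean of the sgk2b probes and that of the ndel1a probes gave a Pearson r of 0.68 (exact permutation p = 0.076, two-sided, adjusted 0.091 over 6 relations) and a Spearman rho of 0.43 (exact permutation p = 0.30). The r was -0.46 without the 2 arrays farthest from the median of sgk2b, an imprecise value with so few arrays left. For 2 probes of one gene, the farthest arrays were taken by A_15_P164181 (sgk2b) or A_15_P131351 (ndel1a). Over the 12 feeding arrays r was 0.26 (permutation p = 0.42, adjusted 0.42) and rho 0.42 (permutation p = 0.18). The probes of one gene gave higher r than this, except that ndel1a in controls (0.70) was near the 0.68 between the genes. No difference between these r was tested. For sgk2b r was 0.87 in controls (exact permutation p = 0.0051, adjusted 0.015) with rho 0.79 (exact permutation p = 0.028), and 0.53 without the 2 farthest arrays. In the feeding arrays it was 0.66 (permutation p = 0.026, adjusted 0.052) with rho 0.76 (permutation p = 0.0056), and 0.82 without them. For ndel1a r was 0.83 in the feeding arrays (permutation p = 0.0002, adjusted 0.0012) with rho 0.80 (permutation p = 0.0030) and 0.76 without the 2 farthest, and 0.70 in controls (exact permutation p = 0.068, adjusted 0.091) with rho 0.52 (exact permutation p = 0.20) and 0.08 without them. A slide held 4 arrays, too few for an r within slides. The 8 controls were 2 sets whose means had been aligned, so they were not freely exchangeable arrays. Their permutation p took no account of this.

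The probes most like these genes were found by Pearson r, as a description, among the deposited probes for the DDVP arrays and among the 16082 probes kept for the feeding arrays. Over the 20 DDVP arrays, which fall into concentration groups that share their controls, sgk2b probe A_15_P210306 was most like xrcc6 (0.93), which encodes the DNA repair protein Ku70, tufm (0.93) and gja13.1 (0.93), and ndel1a probe A_15_P193651 was most like sgk2b probe A_15_P164181 (0.89), ap1s3b (0.89) and ppp1r13l (0.88). The r between ndel1a and sgk2b there follows from choosing both for one pattern over these arrays. The log2 changes of tufm, which encodes a mitochondrial translation factor, were -0.34 at low and 1.38 at high, and those of ppp1r13l were -1.18 and 0.56. Over the 12 feeding arrays in that different pool of probes, the most like were pbxip1a (0.83), rsrc1 (0.82) and ybx1 (0.82) for sgk2b and cab39l (0.93), slc29a4a (0.92) and cul1b (0.88) for ndel1a.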

How the data were processed

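Liver RNA was hybridised to single-colour Agilent zebrafish arrays, and the labels name Agilent Feature Extraction for processing. Per the paper, the DDVP slides were scanned on a GenePix scanner and the feeding slides on an Agilent scanner. For the DDVP slides, probes off scale at the stronger scan power took their values from a weaker scan. Any effect of this on bright probes was not tested. For all 32 samples the authors deposited a table of log2 values of 5481 probes, selected by them on these arrays. Per the paper, median signals were quantile normalized, and a batch effect between the experiments was removed before plotting. For the feeding samples, the deposited scanner files hold spot intensity. For these, median spot signals of 43603 probes were quantile normalized without background subtraction, and log2 values were averaged per probe after outlier spots were left out. Array medians of spot signal (46 to 59) were near those of background (38 to 52), and the share of spots well above it was 48.9 to 56.7%. The small number of arrays limits the precision.

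Probes were kept at a signal to noise of at least 3 on all arrays of a group (16082). All feeding groups shared one fit with limma 3.58.1 (R 4.3.3), with calls at an adjusted p (Benjamini-Hochberg) not above 0.001. Each DDVP group was fitted against the 8 pooled controls, with a 1.8-fold threshold added. Because the control means had been aligned, standard errors in that fit are too small. Of the probes on the array, 15163 had a gene symbol by their transcript accession. Permutation tests used scipy 1.17.1. The fits were tested on simulated data. For unfed 24 h against fed, 43% of simulated log2 changes of 1 and 75% of those of 2 were called. For low against controls it was 65% and 99%. There were 0 false calls. The simulated noise was normal and independent between arrays and probes, with no slide effect. For low against controls its spread also included that of the aligned controls. These shares and the 0 false calls describe that setting only and cannot vouch for the real fits. True changes of these sizes can be missed.

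The genes, lists and tests were chosen with earlier results of these data known. Genes named were the paralogs, up to 3 called probes per sublist with the largest change at high, the reversing probes and the 3 probes most like each gene. Other named genes are marked as chosen after their values were seen. Alternatives covered the signal, filter, slide, replicate block, controls, scaling and each array left out. No sample column was left unused (0).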

Additional observations from a re-analysis of the deposited data

Results flagged for a closer look

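Every low array lay below and every high array above the control mean for the 4 probes, so the effects at the 2 concentrations had opposite signs, and the difference between them was not tested because this pattern chose the genes. High minus low was 3.40 for sgk2b probe A_15_P164181 and 3.31 for A_15_P210306, and 2.07 for ndel1a probe A_15_P131351 and 1.61 for A_15_P193651, on the log2 scale. No array lay far from the rest of its group by Dixon's criterion in the 32 sets examined, 4 probes in each of 8 groups of 4 arrays. With 4 arrays in a set this criterion flags only an extreme array, so it cannot show that none was aberrant. For ndel1a probe A_15_P193651, high replicate 1 (12.10) lay below the other high arrays (12.51 to 12.60).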

How the results depend on the processing

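The feeding changes of the 4 probes stayed past no threshold over 192 alternatives (adjusted p by limma 0.226 to 0.9999, log2 change -0.14 to 0.42). Since they lay near 0, their signs moved. With the processed signal at the 75th percentile the change after 24 h was -0.041 (A_15_P131351), -0.020 (A_15_P193651), -0.10 (A_15_P164181) and -0.040 (A_15_P210306), and after 50 h -0.018 (A_15_P164181). With the slide as a block it was -0.11 (A_15_P164181) and -0.054 (A_15_P210306) after 24 h, -0.0075 (A_15_P164181) after 50 h, and -0.049 (A_15_P193651) between 50 h and 24 h. Leaving out 1 array at a time gave after 24 h -0.11 to 0.19 (A_15_P131351), -0.038 to 0.22 (A_15_P193651), -0.10 to 0.11 (A_15_P164181) and -0.059 to 0.19 (A_15_P210306), after 50 h -0.040 to 0.25 (A_15_P131351), -0.038 to 0.34 (A_15_P193651) and -0.040 to 0.22 (A_15_P164181), and between 50 h and 24 h -0.078 to 0.21 (A_15_P131351), -0.14 to 0.24 (A_15_P193651) and -0.051 to 0.21 (A_15_P164181). The cause was not tested. The count of calls after 24 h was 2 with either processed signal, 0 with the slide as a block and 0 to 3 with 1 array left out (3 without unfed 24 h replicate 2). After 50 h it was 9 with the processed signal at the 75th percentile, 1 without the filter, 1 with the slide as a block and 1 to 18 with 1 array left out (18 without unfed 50 h replicate 2). Under DDVP, the 4 probes of sgk2b and ndel1a kept their sign at low and high under each alternative run. Those signs chose the pair, so this is no support for the reversal. Using each control set alone could not change the differences, because the control means had been aligned. A replicate block could not either, because each group held every replicate number. At mid, the mean of both ndel1a probes was 0.023, and without 1 array A_15_P131351 ran from 0.063 (without control set 1 replicate 3) to 0.22. Without the fold requirement 2612 of all probes and 15 of the SGK list were called at low and 6 of the NudE and dynein list at mid, where that list had 1 to 2 calls with 1 array left out (1 without mid replicate 1).

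Samples were not treated as paired by replicate number. Same-numbered arrays correlated above 0.1 in 4 of 12 feeding pairs and 11 of 40 DDVP pairs (-0.30 to 0.37 and -0.28 to 0.33). Differently numbered arrays were not compared, so these values cannot settle whether the samples were paired. A replicate block gave 0 calls after 24 h and 4 after 50 h, and left the 4 probes' DDVP values as they were. With the deposited table limited to 5481 probes, sgk2a and nde1 under DDVP were not analysed here.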
